A study of Paxillus involutus and Laccaria bicolor with 24 samples.

Results

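The 100 gene models described here are those of the ectomycorrhizal fungus Paxillus involutus whose reads peaked most clearly at t2, the time point at which ammonium had run out of the growth medium while glucose was still there. They were chosen by the counts themselves. Counts were scaled to a common library total (CPM), and the level of a gene model at a time point was taken as log2(mean CPM + 1). A gene model was eligible if none of its 3 steps between successive time points made up more than 0.6 of the summed absolute steps, and the 100 eligible models with the greatest height of t2 above the highest of the other time points were taken. The count table holds 17968 gene models of P. involutus, of which 12032 had a mean count of at least 11 and were tested, and the series as a whole holds 41098 gene models of P. involutus and Laccaria bicolor. Because the same counts selected the members, every difference between time points given for them below is a description and not evidence for the peak.

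The samples were mycelium of a single strain, ATCC 200175, grown on glass beads in a liquid mineral medium, starved of nitrogen and then given a hot-water extract of soil organic matter (SOM) from a Norway spruce stand, supplemented with glucose. All 4 groups had this history, so no library represents mycelium without the extract. They were sampled at t1 on day 2 (active growth, AG), at t2 on day 5 (ammonium depleted, ND), at t3 on day 9 (glucose depleted, CD) and at t4 on day 13 (prolonged glucose depletion, pCD). Each time point had 3 libraries, which the labels call biological replicates, of between 9843577 and 13595446 counted reads. Culture age and the state of the medium changed together over the time points and cannot be told apart. In RNA from whole mycelium, a change in the hyphae that use a gene and a change in RNA per hypha cannot be told apart either.

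Ammonium is a nitrogen source that fungi can use directly. While it is plentiful, many fungi keep transporters and enzymes for other nitrogen sources, such as amino acids, peptides, urea and nitrate, at a low level through nitrogen catabolite repression, and that repression is relieved when ammonium runs out. An ectomycorrhizal fungus takes up nitrogen from soil and passes part of it to the roots of its host tree, from which it receives sugar. The deposited tables give gene models by the name of the gene prediction only and do not pair these names with genes, proteins or functions, so no role is given to any member here. Only 4 members are called by name, the 2 with the highest peaks and the 2 others with the largest fall at t3, both on the log2(mean CPM + 1) scale, and the rest by their rank in the list, where rank 1 has the highest peak.

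The peaks were mostly modest, and 1 model stood far above the rest. Of the 12032 gene models tested, 7830 were within the step limit and 1650 of these were highest at t2. The height at t2 was 2.39 on the log2 scale for rank 1, 1.28 for rank 2, 1.24 for rank 3, 1.08 for rank 10 and 0.67 for rank 50. Only 14 of the 100 members had a height of at least 1, which is a level at t2 at least 2-fold that of every other time point on the log2(CPM + 1) scale. The list has no natural end, since the heights ran on without a gap. Ranks 99 and 100 had heights of 0.527 and 0.527, and the first models outside the list, ranks 101 and 102, had heights of 0.526 and 0.523. The step limit left out 5 other models that were at least as high at t2 as rank 100. In 2 of them the step to t2 was the largest, and in 3 of them the step to t3.

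**Figure D1:**
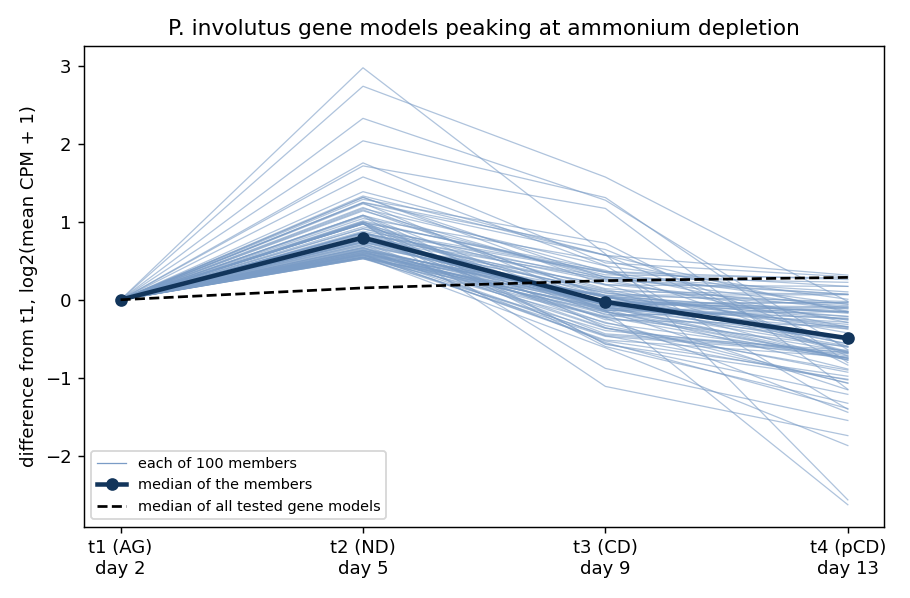
Level of each of the 100 members at t1 to t4, as the difference from its own t1 level in log2(mean CPM + 1) (thin lines), with the median of the members (thick line) and the median of all 12032 tested gene models (dashed line). Against t1 the members' median was 0.80 at t2, then -0.03 at t3 and -0.49 at t4, while the median of all tested models drifted upwards to 0.29 at t4.

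The member of rank 1, e_gw1.13.309.1, had the sharpest peak. It had 29.7, 34.7 and 41.1 CPM in the 3 libraries at t1, 307.9, 260.5 and 283.7 CPM at t2, 49.1, 64.2 and 46.9 CPM at t3 and 4.89, 5.41 and 4.97 CPM at t4. The libraries of the 4 time points did not overlap, and the order of the time points was t2, t3, t1 and t4. In edgeR's quasi-likelihood fit over all tested models its log2 fold change was 2.85 ± 0.11 (SE) at t2 against t1, with a Benjamini-Hochberg adjusted p of 2.99e-12. At t3 against t2 it was -2.48 ± 0.11 (SE), with an edgeR adjusted p of 1.06e-11. By t4 it lay well below its starting level, with a log2 fold change of -3.06 ± 0.16 (SE) at t4 against t1 and an edgeR adjusted p of 9.36e-12. The mean at t2 was 55.8-fold that at t4.

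The second member, estExt_fgenesh1_pm.C_3_t10322, also peaked at t2, but at t3 and t4 it was not called different from its starting level. It had 8.73, 10.2 and 11.3 CPM at t1, 40.0, 32.6 and 36.6 CPM at t2, 13.9, 15.9 and 13.3 CPM at t3 and 12.7, 13.7 and 11.4 CPM at t4. The libraries at t2 were all above the other 9, and those at t3 were all above those at t1. By CPM the libraries at t4 overlapped with t3 and were also all above those at t1. In edgeR's quasi-likelihood fit its log2 fold change was 1.68 ± 0.11 (SE) at t2 against t1, with an adjusted p of 8.35e-10, and -1.41 ± 0.10 (SE) at t3 against t2, with an adjusted p of 6.18e-09. At t3 against t1 it was 0.27 ± 0.12 (SE), with an edgeR adjusted p of 0.0558. At t4 against t1 it was 0.04 ± 0.12 (SE), with an edgeR adjusted p of 0.764. The CPM means at these time points, 12.6 at t4 and 10.1 at t1, differ by more than that because CPM did not take up a shift that affected most gene models, which is described below.

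The members named for their fall at t3 were of a different shape, with a moderate rise at t2 and a deep fall after it. The member of rank 16, e_gw1.42.26.1, had 3.34, 3.44 and 4.71 CPM at t1, 9.75, 9.57 and 6.28 CPM at t2, 0.978, 1.62 and 1.10 CPM at t3 and 0.489, 0.642 and 0.191 CPM at t4. Its libraries fell into the order t2, t1, t3 and t4 without overlap, although the third library at t2 was lower than its companions, and the counts at t4 were only 5, 7 and 2 reads. Its log2 fold change in edgeR's quasi-likelihood fit was 0.96 ± 0.20 (SE) at t2 against t1, with an adjusted p of 0.000665. At t3 against t2 it was -2.85 ± 0.26 (SE), with an edgeR adjusted p of 7.8e-08. In this fit rank 17, at -2.30, fell by more than the other model named for its fall, rank 18, which the log2(mean CPM + 1) scale placed ahead of it.

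The member of rank 18, estExt_Genewise1.C_4_t20152, had 19.2, 16.1 and 21.6 CPM at t1, 37.0, 41.0 and 36.9 CPM at t2, 9.68, 11.1 and 8.71 CPM at t3 and 5.68, 5.97 and 5.83 CPM at t4. The order of its time points was that of rank 16, again without overlap between libraries. Its log2 fold change was 0.84 ± 0.10 (SE) at t2 against t1 and -2.03 ± 0.11 (SE) at t3 against t2 in edgeR's quasi-likelihood fit, with adjusted p of 2.04e-06 and 1.58e-10. At t4 against t1 the log2 fold changes were -3.37 ± 0.36 (SE) for e_gw1.42.26.1 and -1.99 ± 0.13 (SE) for estExt_Genewise1.C_4_t20152, with edgeR adjusted p of 1.51e-07 and 1.58e-10.

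**Figure D2:**
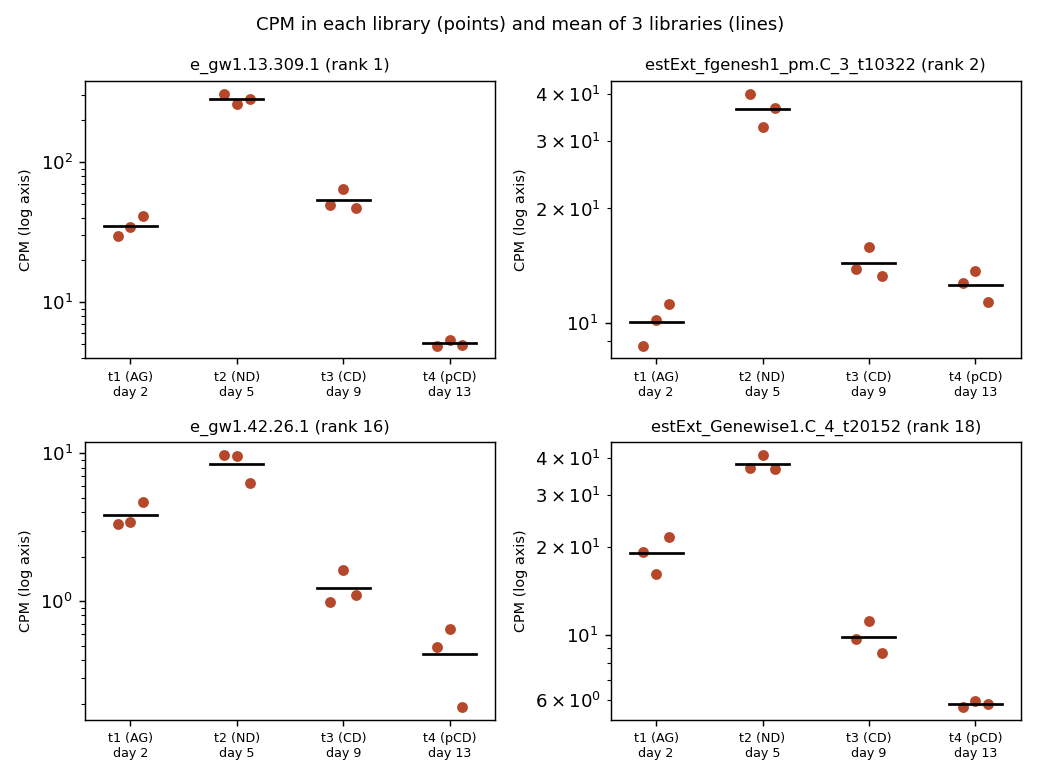
CPM of the 4 named members in each of the 12 libraries, on log axes, with the mean of the 3 libraries at each time point as a line. In every panel the t2 libraries lie above the other 9, and e_gw1.13.309.1 and e_gw1.42.26.1 end at 5.09 and 0.441 CPM at t4, the mean of 3 libraries.

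By CPM the libraries at t2 did not overlap with the others for any member. All 3 libraries at t2 lay above all 9 others for 100 of the 100 members, against 8.32% of all tested models, a count that the selection on group means did not require but that it favoured. The count was 99 with TMM-scaled CPM, 97 with DESeq2 size factors, 88 with the authors' factors and 89 on the deposited rlog values. The share of all tested models was counted by CPM only, and it cannot stand in for the share on these scales. The lowest t2 library was between 1.04-fold and 4.06-fold the highest other library, with a median of 1.41-fold. The smallest ratio was that of rank 95, with 4.47, 3.85 and 3.59 CPM at t2 and 3.44 CPM in the third library at t4. Among the 3 libraries at t2, the highest value came from the first replicate for 48 members, from the second for 25 and from the third for 27. The spread between replicates, which the rule did not use, was somewhat larger than in the whole table at each time point. The median SD of log2(CPM + 1) among the 3 libraries at t2 was 0.10 for the members and 0.08 for all tested models. It was 0.12 and 0.10 at t1, 0.10 and 0.09 at t3, and 0.12 and 0.10 at t4. The members also had fewer reads, with a median mean count of 219 against 353 for all tested models, and the part of read depth in their spread was not tested.

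The members differed widely in read depth. The mean count over the 12 libraries was below 50 for 16 members and at least 1000 for 23. The thinnest member, rank 53, had 17, 28 and 27 reads at t2 and 10, 16 and 12 reads at t1. Its log2 fold change at t2 against t1 was 0.95 ± 0.31 (SE), with an edgeR quasi-likelihood adjusted p of 0.0181, and its highest count at t1 lay just under its lowest at t2. At the other end, rank 42 had 32411, 32581 and 35099 reads at t2 and 9435, 7842 and 10710 reads at t1.

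The reads of the members together were highest at t2, next highest at t3 and lowest at t4, an order that 34 of the 100 members had singly by CPM. They took 0.778 ± 0.019% of all counted reads at t1, then 1.63 ± 0.012% at t2, 0.889 ± 0.013% at t3 and lastly 0.464 ± 0.004% at t4 (SD, n = 3). The 3 members with most reads, ranks 42, 58 and 9, made up a large part of it. Without them the share was 0.483 ± 0.009% (t1), 0.920 ± 0.011% (t2), 0.494 ± 0.003% (t3) and 0.329 ± 0.004% (t4), again as SD with n = 3. With or without these members, the libraries at t2 were the highest and those at t4 the lowest, with no overlap. Rank 42 alone had a mean of 781 CPM at t1, 3218 CPM at t2, 1941 CPM at t3 and 446 CPM at t4.

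**Figure D3:**
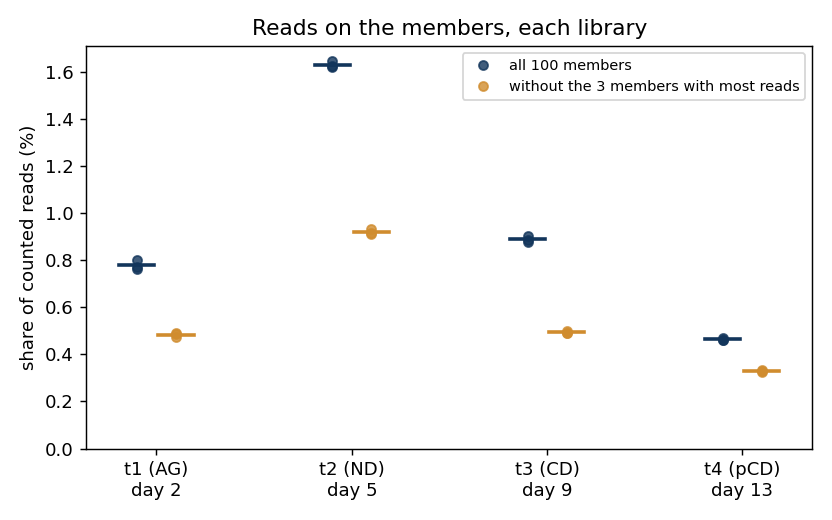
Share of counted reads that fell on the members, in percent, in each of the 12 libraries (points) with the mean at each time point (lines), for all 100 members and without the 3 members with most reads. The share at t2 lies between 1.62% and 1.64% for all members and between 0.913% and 0.932% without the 3.

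The members differed in what they did before and after the peak. On the CPM scale the rise at t2 over t1 was between 0.53 and 2.98 with a median of 0.80, and the fall at t3 was between -2.39 and -0.53 with a median of -0.78. The rise exceeded 1 in 27 members and the fall exceeded 1 in size in 33. The time point next below t2 was t1 in 53 members, t3 in 46 and t4 in 1. The 46 members with t3 next below t2 had the steeper rise, with a median of 0.99, and a median fall of -0.69. In the 53 with t1 next, these medians were 0.66 and -0.92. A smaller rise in the second group follows from the rule, since the height of its members is the rise itself, while in the first group the rise is larger than the height. A smaller fall in the first group follows in the same way. There the size of the fall is the height, and in the second group it is larger than the height. The lowest time point was t4 in 82 members, t1 in 13 and t3 in 5. By CPM t4 was the lowest time point in 24.5% of all tested models. The tested models include those lowest at t2, which the rule does not allow for a member, so these shares are not like for like.

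Setting the members against t1 needed a scale that takes up the drift of the whole table. The median tested model lay above its t1 level by 0.15 at t2, by 0.25 at t3 and by 0.29 at t4 on the log2(CPM + 1) scale. With library sizes scaled by TMM (trimmed mean of M values), which sets the bulk of the genes to no change, these medians were 0.00, 0.04 and 0.04. The median member was -0.03 at t3 against t1 by CPM and -0.24 by TMM-scaled CPM, and -0.49 and -0.73 at t4 against t1. By CPM 53 members were lower at t3 than at t1, and by TMM-scaled CPM 72 were. At t4 against t1, 87 were lower by CPM and 97 by TMM-scaled CPM. The height of the peak moved less, with a median of 0.67 by CPM and 0.61 by TMM-scaled CPM, and all 100 members were highest at t2 on both scales.

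The calls below are from edgeR's quasi-likelihood test with TMM, with all 12 libraries in 1 fit and a false discovery rate of 1% over the 12032 tested models. At t2 against t1, 89 members were called higher, against 14.1% of all tested models, with log2 fold changes of all 100 between 0.36 and 2.85, a median of 0.72 and a median SE of 0.10. At least 2-fold higher were 23 members. The 11 members not called had ranks between 53 and 96, log2 fold changes between 0.48 and 0.95 and edgeR adjusted p between 0.0115 and 0.0776, and 8 of them had a mean count below 50. At t3 against t2 all 100 members were called lower, against 19.1% of all tested models, with a median log2 fold change of -0.95. With DESeq2, 84 members were called higher at t2 than at t1 and 95 lower at t3 than at t2. With the authors' factors as offsets in edgeR these counts were 74 and 84. The shares of all tested models were counted in the TMM fit only, so whether they moved as well was not tested. At t4 against t2 all 100 were again called lower, against 28.1%, with a median of -1.53, and 84 were at least 2-fold lower. Over the whole time course 100 members were called changed, against 70.9% of all tested models. Each of these contrasts includes the t2 counts that chose the list, and nothing can be read from how many passed.

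After the peak the members are sorted here by their call at t3 against t1, as lower, higher or neither. The calls cut the range of log2 fold changes given below at a threshold. Whether the members form separate groups was not tested. At t3 against t1, 34 members were called lower, against 26.5% of all tested models, 10 were called higher, against 26.3%, and 56 were not called. With the authors' factors as offsets in edgeR, 4 members were called higher and 26 lower, and the shares of all tested models were not counted there. The range of the log2 fold changes was from -1.88 to 1.47, with a median of -0.26. At t4 against t1, 77 members were called lower, against 30.5% of all tested models, and 39 members had a log2 fold change of at least 1 in size, all downwards. None was called higher at t4 than at t1, against 32.2% of all tested models, nor with DESeq2. At an unadjusted p under 0.05, 0 members were higher, against 38.4% of all tested models in edgeR and 33.8% in DESeq2. At t4 against t3, 54 members were called lower, against 13.3% of all tested models. None was called higher, against 11.8%. Again 0 members were higher at an unadjusted p under 0.05, against 21.2% of all tested models in edgeR and 17.8% in DESeq2. These counts rest on the t1, t3 and t4 counts that also entered the rule, which asked of each that it be below t2 and limited the size of the steps.

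The 34 members that were called lower at t3 than at t1 were all called lower at t4 than at t1 as well. Their median log2 fold change was -0.58 at t3 against t1 and -1.18 at t4 against t1, and 21 of them were called lower at t4 than at t3. The unnamed member of best rank here was rank 9. It had 809.6, 819.1 and 956.0 CPM at t1, 1891, 1789 and 1815 CPM at t2, 815.9, 790.7 and 747.4 CPM at t3 and 136.7, 138.0 and 139.7 CPM at t4. By CPM its t3 libraries overlapped with those at t1, and those at t4 were far below the rest. Its fitted log2 fold change was -0.37 ± 0.06 (SE) at t3 against t1, with an edgeR quasi-likelihood adjusted p of 7.04e-05, and -2.92 ± 0.07 (SE) at t4 against t1, with an adjusted p of 5.73e-16. By CPM the means were 785 at t3 and 862 at t1, a smaller difference than the fitted one.

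Of the 56 members not called at t3 against t1, 35 were called lower at t4 than at t1 and 21 were not called at either time point. The 35 include e_gw1.13.309.1, and the 21 include estExt_fgenesh1_pm.C_3_t10322. The 21 had median log2 fold changes of 0.79 at t2, 0.05 at t3 and -0.20 at t4, each against t1. A p above the threshold does not show that they were back at the t1 level, and the log2 fold changes of the 56 at t3 against t1 ran from -0.67 to 0.90. Rank 3, of the 35, had 9.67, 8.31 and 7.72 CPM at t1, 23.4, 21.7 and 19.9 CPM at t2, 8.90, 7.59 and 7.70 CPM at t3 and 4.50, 5.41 and 4.11 CPM at t4. Its t3 libraries overlapped with those at t1, and its t4 libraries were below both. Its log2 fold change at t4 against t1 was -1.14 ± 0.14 (SE), with an edgeR quasi-likelihood adjusted p of 1.25e-06.

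The 10 members called higher at t3 than at t1, a count that was 4 with the authors' factors, had a median log2 fold change of 1.20 at t2 against t1, compared with 0.73 in the 56 members not called at t3 and 0.55 in the 34 called lower. The 3 groups were formed on contrasts that share the t1 libraries with this one, so the order of these medians is not a finding. By t4, 8 of the 10 were called lower than at t1 and 2 were not called. Between t3 and t4, 9 of the 10 were called lower, with a median log2 fold change of -1.57. Rank 4 had 5.13, 6.59 and 7.80 CPM at t1, 55.5, 50.1 and 42.1 CPM at t2, 19.8, 23.1 and 21.3 CPM at t3 and 5.38, 8.17 and 5.64 CPM at t4. Its t3 libraries lay between those at t2 and the rest, and its t4 libraries overlapped with those at t1. Its log2 fold change was 1.47 ± 0.16 (SE) at t3 against t1, with an edgeR quasi-likelihood adjusted p of 2.53e-07, and -0.30 ± 0.19 (SE) at t4 against t1, with an adjusted p of 0.163.

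Rank 42, the member with most reads, was also in this group. It had 807, 749 and 788 CPM at t1, 3293, 3213 and 3148 CPM at t2, 1852, 2084 and 1888 CPM at t3 and 393, 468 and 478 CPM at t4. The 4 time points did not overlap, in the order t2, t3, t1 and t4. Its log2 fold change was 1.88 ± 0.08 (SE) at t2 against t1, 1.08 ± 0.07 (SE) at t3 against t1 and -1.08 ± 0.07 (SE) at t4 against t1, with edgeR quasi-likelihood adjusted p of 3.8e-12, 6.98e-10 and 3.9e-10. With the authors' factors, described below, its means were 1430 at t2 and 1222 at t1, a much smaller rise, and 1134 at t3 and 1222 at t1, so that the direction at t3 against t1 turned.

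**Figure D4:**
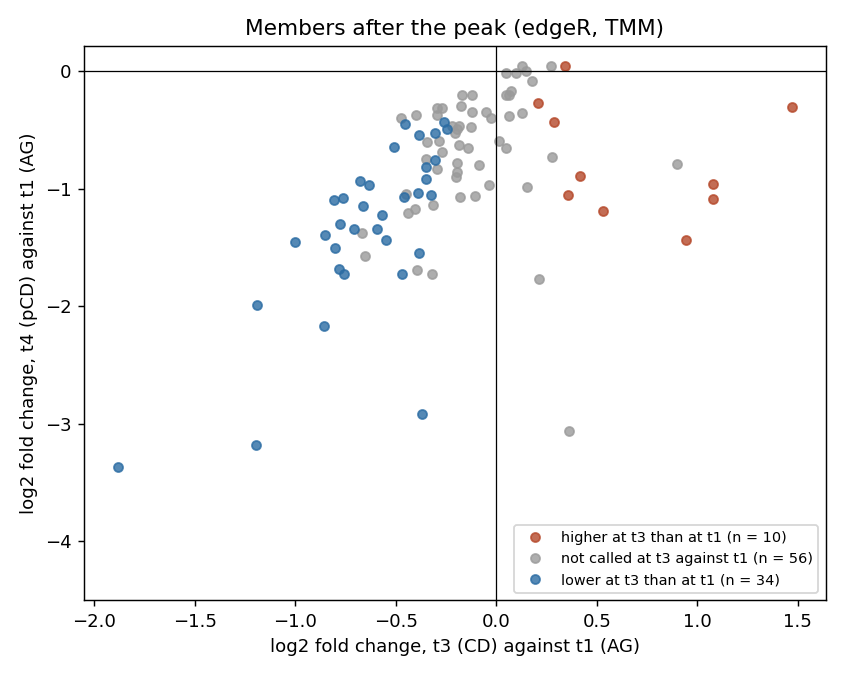
Fitted log2 fold change of each member at t3 against t1 (horizontal axis) and at t4 against t1 (vertical axis), coloured by its call at t3 against t1 at a false discovery rate of 1% in edgeR. Of the 100 members, 34 were called lower, 56 were not called and 10 were called higher at t3, and the highest value at t4 is 0.044.

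Choosing the members without 1 of the replicate numbers gave values that the choice had not used. The rule was repeated on the 8 libraries of 2 replicate numbers, and the peak was then read in the 4 libraries left out. With the libraries of replicate 1 left out, 98 of the 100 models so chosen were highest at t2 in the left-out libraries, against 21.3% of all models tested there. With replicate 2 left out it was 99, against 21.2%, and with replicate 3 left out it was 97, against 21.1%. The median height in the left-out libraries was 0.67, 0.64 and 0.58 for replicates 1, 2 and 3, compared with 0.66, 0.69 and 0.69 in the libraries that chose the models. The lowest heights were -0.37, -0.25 and -0.38, each from a single library per time point. The 3 choices had 81, 87 and 86 models in common with the list, so the left-out values are largely those of the same models, and the rule itself was proposed with all libraries seen.

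**Figure D5:**
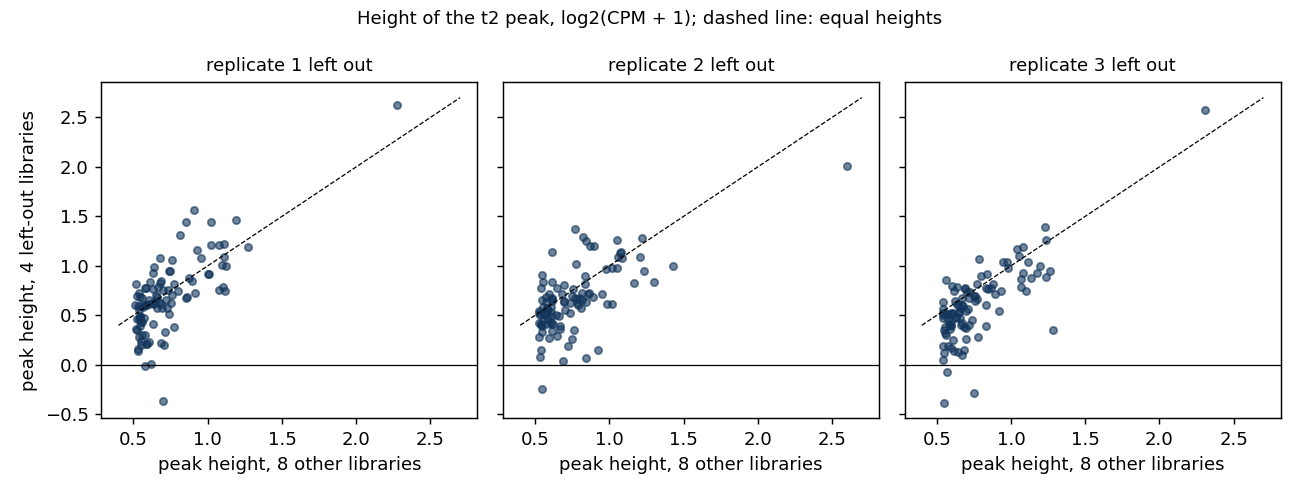
Height of the t2 peak, in log2(CPM + 1), of the 100 models chosen on 8 libraries (horizontal axis) and of the same models in the 4 libraries left out (vertical axis), with one panel for each replicate number left out and a dashed line where both are equal. The models below the horizontal line, 2, 1 and 3 in number, were not highest at t2 in the left-out libraries.

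Membership depended on single libraries, mostly towards the end of the list. When each of the 12 libraries was left out in turn and the list was drawn again, 66 members were in every list. The other 34 had a median rank of 83.5, and the least stable was kept in 6 of the 12. The best ranked of the 34 was rank 16, the named member e_gw1.42.26.1. The heights on both sides of rank 100 were close, as given above. Rank 100 itself had 82.8, 83.1 and 90.9 CPM at t1, 123.2, 126.7 and 121.3 CPM at t2, 63.1, 66.2 and 65.2 CPM at t3 and 54.8, 50.3 and 54.2 CPM at t4, with no overlap between t2 and the rest. Rank 101, just outside, had 45.0, 50.7 and 48.5 CPM at t2 and 31.7, 34.9 and 32.7 CPM at t1, also without overlap.

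The authors' own normalization, which adjusts each gene model and library for length, G/C content and depth, moved several members. Dividing the counts by these deposited factors left 99 of the 100 members highest at t2. The rule applied to the scaled values, however, kept 49 of the 100. Of the 51 not kept, 40 were within the step limit but too low and 11 were beyond it, and 50 were still highest at t2. The factor itself, set against the mean of the other time points, was higher at t2 by over 0.5 on the log2 scale for 12 members and lower by over 0.5 for 9, against 1.35% and 1.60% of all tested models. In the 12, the median log2 difference at t2 against t1 was 0.47 with the factors and 1.09 by CPM, and in the 9 it was 0.85 with the factors and 0.71 by CPM. The 12 and the 9 were grouped by the factor that divides the counts, so the direction of these differences largely follows from the grouping. The factors were estimated from the same counts, so these values are not independent of the rule either.

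Rank 58 was the member that was no longer highest at t2 with the factors. It averaged 1312 CPM at t1, 2033 CPM at t2, 1230 CPM at t3 and 767 CPM at t4. With the factors, on the same scale, these means were 2112 (t1), 1754 (t2), 1667 (t3) and 1440 (t4). It and rank 9 had the same factor-scaled value in each of the 3 libraries at t2, although their CPM means there were 2033 and 1832. For these factors the paper reports full quantile normalization over strata of gene models, and its part in the tie was not tested. Rank 42 had factor-scaled means of 1222 (t1), 1430 (t2), 1134 (t3) and 292 (t4), a far smaller rise at t2 than its CPM. Rank 9 had factor-scaled means of 1604 (t1), 1754 (t2), 1667 (t3) and 266 (t4). In each of the 3 members with most reads the rise at t2 was thus smaller with the factors than by CPM, or turned round, and the part of the authors' adjustment in it was not tested.

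The names of the gene models, which the rule did not use, showed no class or scaffold holding most of the list. Models from the 9 prediction classes read from the names were present, the largest class being fgenesh1_kg with 21 of the 100 members, against 22.8% of all tested models. The estExt_fgenesh class had 11 of the 100 members, against 6.20% of all tested models. A scaffold could be read from the names of 82 members, and these lay on 49 scaffolds, with at most 6 on 1 scaffold. That was scaffold 1, with 7.32% of the placed members against 8.46% of the placed tested models. Scaffolds 1 to 10 held 35.4% of the placed members and 43.0% of the placed tested models, and no test was made of these shares.

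The height of the peak can be set beside that of similar lists. The list of P. involutus had a median height of 0.67 and 14 models with a height of at least 1. The same rule in L. bicolor gave 0.86 and 32. That species was sampled at its own 4 time points of the same names, on later days from t2 on. The rule there drew on 14352 tested models, against 12032 in P. involutus. The highest model of L. bicolor reached 4.48. The mirror rule in P. involutus, which takes the models lowest at t2, gave a median depth of 0.54 and 6 models with a depth of at least 1. The depths ran from 2.00 at rank 1 to 0.40 at rank 100. The heights and depths are by CPM, which in P. involutus did not take up the drift described above. Models were not paired between the species, and these differences were not tested.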

How the data were processed

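The authors aligned 50-base single reads to the gene models with TopHat2 (version 2.0.13) and counted them on coding sequence, by strand, with HTSeq (version 0.6.1). The deposited table gives raw counts, a whole number for each model and library. As 1 transcriptome hit per read was allowed, near-identical copies are uncertain. The deposited factors, a ratio by which the authors divide each count, and the deposited rlog values, on a log2 scale, come from EDASeq and DESeq2 (version 1.14.1).

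Totals of 9843577 to 13595446 counts were used for CPM. The minimum mean count was 11. The fit used all 12 libraries and edgeR (version 4.0.16, R version 4.3.3), by the quasi-likelihood test with TMM, a coefficient per time point and Benjamini-Hochberg adjustment over 12032 models at 1%. Scripts were tested on simulated data. Each edgeR p-value sets a contrast against the spread within time points, pooled over all 12 libraries and moderated across models. An exact permutation test of 3 against 3 could not go below 0.1. The named models are the 2 with the greatest height and the 2 others with the largest fall at t3, both on log2(mean CPM + 1). None of the names matched the reference table. The members and lists were chosen with earlier results of these data known. Alternatives were DESeq2 (version 1.42.0), other scalings, filters, pseudocounts, step limits and left-out libraries.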

Additional observations from a re-analysis of the deposited data

How the results depend on the processing

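The membership depended most on the authors' normalization. The rule kept 49 members on counts divided by the authors' factors and 52 on the deposited rlog values, compared with 72 with TMM-scaled libraries, 68 to 97 under the other scalings, pseudocounts, count minimums, step limits and group medians, and 81 to 99 with a library or a replicate number left out. The median height of 0.67 was 0.56 with the authors' factors, 0.32 on the rlog values, which are shrunken, 0.56 with a pseudocount of 5 and 0.61 by TMM-scaled CPM, a setting chosen after seeing the data. With the authors' factors as offsets in edgeR, 4 members were called higher at t3 than at t1, compared with 10. With these offsets 74 were called higher at t2 than at t1, compared with 89. Those called lower at t3 than at t2 numbered 84, compared with 100. The shares of all tested models were not counted with these offsets, and the cause of these moves was not tested.

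With single libraries left out, the members called higher at t2 than at t1 numbered 80 to 91, those lower at t3 than at t2 95 to 100, those higher at t3 than at t1 7 to 11, those lower at t3 than at t1 27 to 37 and those lower at t4 than at t1 73 to 77. The log2 fold change of estExt_fgenesh1_pm.C_3_t10322 at t4 against t1, which was not called, ran from -0.04 to 0.14 and was below 0, at -0.045 without the first replicate of t1 and -0.016 without the second of t4. The other named models kept their sign and their call. The replicate numbers did not pair the libraries: over 18 pairs with the same number the correlation of deviations was between -0.39 and 0.09, and 1 of 12 libraries correlated best with its own number. With the number as a replicate block, 89 members were called higher at t2 than at t1, 99 lower at t3 than at t2 and 77 lower at t4 than at t1. No share of all tested models was counted with the block or with single libraries left out. Low counts limit the 16 members with a mean count below 50.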
